A study of Mus musculus with 54 samples.

Results

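The binding sites of Zfp_MB014 were the 1252 peaks that the authors called for this protein, of 25012 peaks in the lists of 42 proteins. All peaks of its list were taken, and the 1250 on the assembled chromosomes were analysed, since 2 lay on unplaced scaffolds. Zfp_MB014 is a KRAB-zinc finger protein (KZFP) encoded in the chromosome 4 KZFP gene cluster of the BL6J mouse. It was over-expressed in the embryonal carcinoma cell line F9, of mouse origin, from a codon-optimized coding sequence with a C-terminal 3x-HA tag in a Sleeping Beauty transposon vector, and its sites were measured by anti-HA ChIP-seq. The other 41 KZFPs were expressed and measured in the same way, each in a puromycin-selected culture of its own. The reference of the Zfp_MB014 library was a mix of the input chromatin of experimental batch 3, and cells with the empty vector, measured in batches 1, 2 and 4 and not in batch 3, were the negative control. Each KZFP had 1 library, so no value below has a replicate check.

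KZFPs read DNA through an array of tandem zinc fingers, and their KRAB domain recruits TRIM28, which assembles heterochromatin at the bound site. Many of them bind transposable elements. LINE-1 (L1) is a retrotransposon without long terminal repeats. Its promoter lies in its own 5′ UTR, and its pair of reading frames encodes an RNA-binding protein and a protein with endonuclease and reverse transcriptase activity. The level of the tagged protein in an over-expressing line need not match that of the native protein, and the peak lists hold neither its level nor the number of reads.

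The sequences that the results turn on are shown 5′ to 3′. The first is the site that the study inferred for Zfp_MB014 beside a shorter motif in its peaks. The second is the form of this site that lay at most L1 summits, called the lead form here. Capitals mark the 14 bases of the 30-base site that are also in the 15-base motif.
Inferred site: atcttcgtctccagacAACTGGCCACCTTC
Lead form in L1: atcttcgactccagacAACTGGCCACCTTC
The lead form occurs at bases 508 to 537 of the L1 copy at the centre of the family, at chr19:21214714-21221225 of GRCm39, plus strand. It lies 253 bases before the first reading frame of that copy, in the part of the element that precedes the reading frames.

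Zfp_MB014 peaks fell into 4 sequence classes. Summit windows of 200 bp were aligned to each other, and a family was a window with all windows that matched it over at least 100 bp at 80% identity. The largest family was the L1 family, with 508 of 1250 peaks (40.6%, exact 95% binomial interval 37.9 to 43.4%). A second repeated sequence held 157 peaks (12.6%, 10.8 to 14.5%), and 11 small families of at most 14 peaks held 55 (4.40%). The remaining 530 peaks (42.4%, 39.6 to 45.2%) had a summit window like no other in the list and are called single-sequence peaks. All intervals given here cover counting error only. Of 23725 summit windows of the other 41 KZFPs, 5 matched the centre of the L1 family and 25 that of the second family.

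Fold enrichment over the mixed input ran between 10.0, the authors' cutoff, and 124.6, with a median of 16.3. The median was 18.2 in the L1 family, 16.7 in the second family, 12.8 in the small families and 15.0 in the single-sequence peaks. The order turned round among the strongest peaks. A fold enrichment of at least 50 was reached by 22 single-sequence peaks, against 9 peaks of the L1 family and 1 of the second family. The highest value was 124.6 for a single-sequence peak and 56.5 for an L1 peak. Reads with several equally good alignments were placed at random by the authors, so the reads of identical L1 copies were spread over those copies. The 100 bases around the summit occurred once in the assembly for all 530 single-sequence peaks, for 111 of 508 L1 peaks (21.9%) and for 66 of 157 peaks of the second family (42%). The median fold enrichment of L1 peaks was 15.5 where these bases occurred once and 20 where they occurred more than once.

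**Figure D1:**
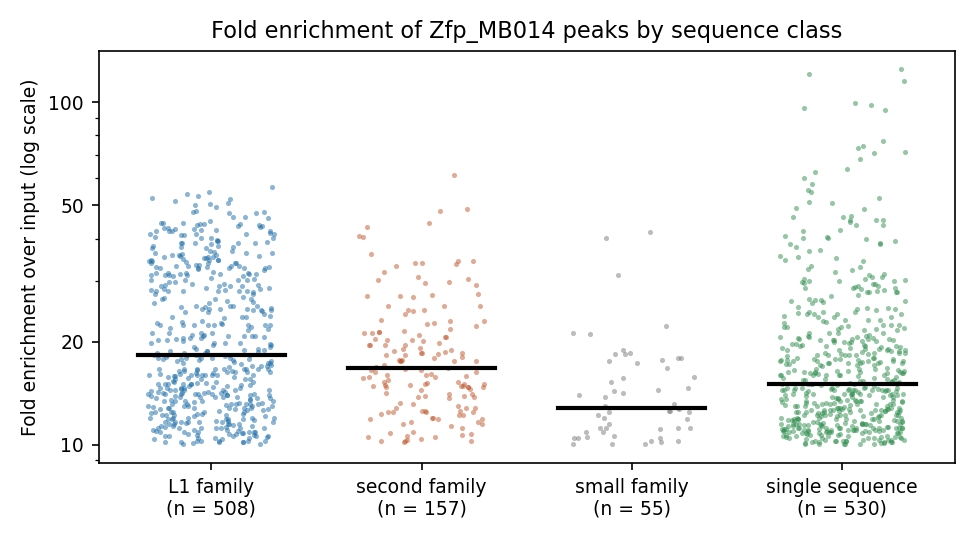
Fold enrichment over the mixed input (log axis) of each Zfp_MB014 peak by sequence class, with the class median as a line. Medians lie between 12.8 and 18.2, and values above 61.5 are seen only among the single-sequence peaks.

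L1 peaks gathered in a narrow stretch of the element. The copy at the family centre was 6512 bases long, with open frames of 385 codons from base 791 and of 1281 codons from base 1989. Of the 507 other copies in the family, 466 (91.9%) aligned to it over at least 90% of its length, so most bound copies were long. In all, 526 peaks aligned to the whole element, 508 of the L1 family and 18 others, and all 526 lay in its first 750 bases. The other 41 lists had 376 windows on the element, of which 33 lay in these first 750 bases. Most of the windows of 4 of these lists were on this element, Zfp268 (17 of 21), Zfp978 (16 of 24), Zfp979 (27 of 42) and Zfp_MB004 (34 of 54). A total of 374 of the 508 L1 peaks (73.6%) held the lead form, at a median of 24 bases from the summit. A copy of the 30-base site with at most 6 mismatches was found in 504 of 508 L1 peaks, and 4 had none.

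**Figure D2:**
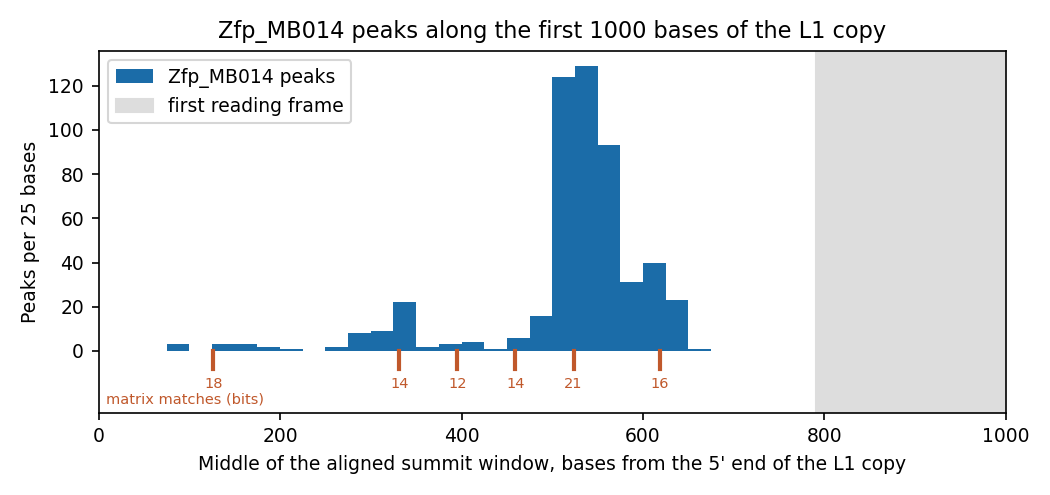
Zfp_MB014 peaks per 25 bases along the first 1000 bases of the L1 copy, by the middle of the aligned summit window. Ticks under the axis mark matches of the degenerate site with their score in bits, and the largest pile of peaks stands at the match with 20.9 bits.

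The 15-base motif was found mainly in the L1 family. With at most 1 mismatch it was present in 472 of 508 L1 windows (92.9%, 90.3 to 95%), in 12 of 55 windows of the small families (21.8%), in 0 of 157 windows of the second family (upper limit 2.32%) and in 1 of 530 single-sequence windows (0.189%, upper limit 1.05%). Over all peaks it was in 485 of 1250 summit windows (38.8%), against 1 of 1250 windows placed 1000 bases upstream (0.0800%). The motif was found by the study in these same peaks, so its presence is a description.

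Most sites of this kind in the genome carried no peak. On both strands of the chromosomes 6050 copies of the 30-base site with at most 6 mismatches were found, and 1522 of them (25.2%) overlapped a Zfp_MB014 peak. The share was 12.3% with the site within 100 bp of the summit, and 12.4% of the 4031 copies whose surrounding 100 bases occurred once. An L1 copy often holds several of them, so copies on 1 strand within 1000 bases were joined into 2824 stretches, of which 523 (18.5%) had a peak. A peak was present at 377 of 483 stretches with the lead form (78.1%, 74.1 to 81.7%), against 146 of 2341 stretches without it (6.24%, 5.29 to 7.29%). The share was lower with each base by which the closest site of a stretch differed from the lead form. It was 31.5% of 219 stretches with 1 substitution, 8.25% of 606 with 2, 4.16% of 433 with 3, 1.66% of 421 with 4, 0.385% of 260 with 5, 0.260% of 384 with 6 and 0 of 18 with 7.

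Single substitutions of the lead form differed in how often they were bound, here counted as a summit within 100 bases of the site. Positions are counted from 1 at the 5′ end of the lead form. The unchanged form had a summit at 362 of 483 copies (74.9%, 70.8 to 78.8%). T20C had one at 26 of 92 copies (28.3%, 19.4 to 38.6%) and A8G at 4 of 88 (4.55%, 1.25 to 11.2%). G7A had one at 8 of 8 copies and A8T, which is the inferred site itself, at 2 of 5. The 100 bases around the copy occurred once in the assembly for 14.1% of copies of the unchanged form, 60.9% of T20C copies and 92.0% of A8G copies. Among these forms the bound share was lower where copies were more often unique, and the part of random read placement was not tested. Copies that share a substitution also share other bases of their L1 copy, and the part of those bases was not tested. Such copies are related and not independent, so the intervals do not test a difference between forms.
A8G with T20C: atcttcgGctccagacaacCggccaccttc
The form with both substitutions, marked in capitals, was more frequent in the genome than the lead form, with 622 copies, and had a summit at 25 of them (4.02%, 2.62 to 5.88%). Where position 8 held T in place of A or G, beside T20C, 21 of 41 copies had a summit (51.2%, 35.1 to 67.1%). The surrounding 100 bases occurred once for 82.9% of these copies and for 80.5% of copies of the form with G.
A8T with T20C: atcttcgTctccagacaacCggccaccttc
The most frequent form of all, with 834 copies, had one at 13 (1.56%).
Most frequent form: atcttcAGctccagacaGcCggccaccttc
Capitals mark its 4 substitutions, G7A, A8G, A18G and T20C. This form often stood in an L1 copy beside the lead form. A peak was present at 278 of 352 stretches that held both (79.0%), against 43 of 100 stretches that held this form without the lead form (43.0%, 33.1 to 53.3%). Another frequent form had a summit within 100 bases at 105 of 159 copies (66.0%, 58.1 to 73.4%), but 154 stretches that held it also held the lead form and 4 did not.
Form beside the lead form: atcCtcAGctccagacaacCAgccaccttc
Capitals mark its substitutions T4C, G7A, A8G, T20C and G21A.

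**Figure D3:**
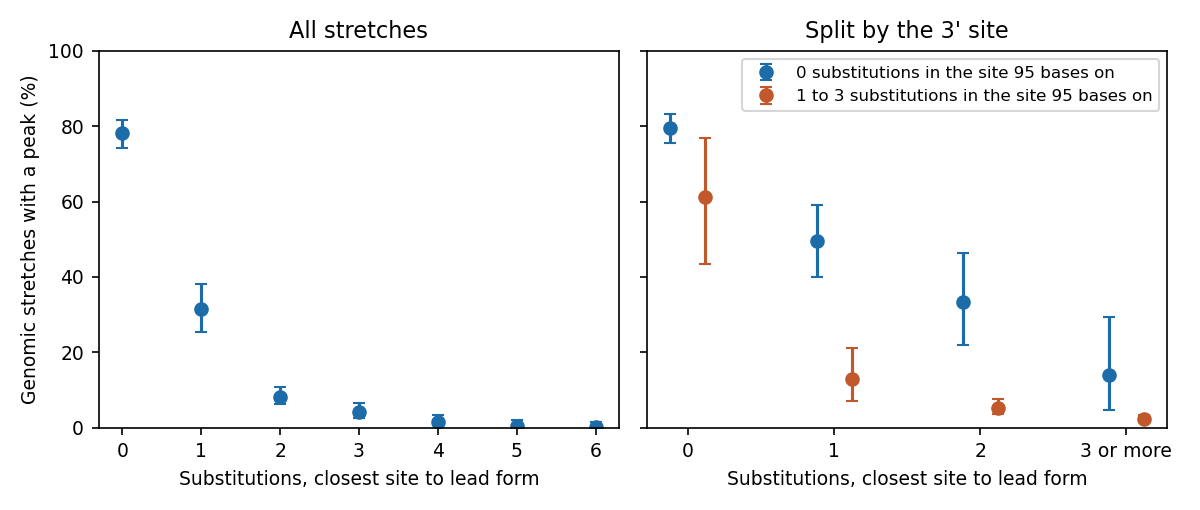
Percentage of genomic stretches with a Zfp_MB014 peak (points, with exact 95% intervals) by the substitutions between their closest site and the lead form. The left panel shows 0 to 6 substitutions. The right panel is split by the closest match to the 3′ site in the stretch or within 300 bases of it. Stretches with 4 or more substitutions in that match are left out on the right. The share is 78.1% with the lead form and 31.5% with 1 substitution, and it is higher where the 3′ site is unchanged.

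Single-sequence peaks shared a looser version of the same site. A position matrix of 30 bases was started from the lead form, shifted by 1 base, and fitted to the 530 single-sequence windows. Windows of odd-numbered chromosomes and X (285) were scored with the matrix fitted to those of even-numbered chromosomes and Y (245), and the other way round. A score of at least 10 bits, a log2 ratio of site to background, was reached in 424 of 530 single-sequence windows (80%, 76.3 to 83.3%), against 17 of 530 windows 1000 bases upstream (3.21%, 1.88 to 5.09%) and 22 of 530 windows 1000 bases downstream (4.15%). In the other 41 lists it was reached in 3041 of 23725 summit windows (12.8%) and in 1706 windows upstream of them (7.19%). The match lay at a median of 9 bases from the summit, and within 20 bases in 356 of the 424 windows. The matrix was built after the peaks had been seen. When it was started from the last 8 bases of the L1 form alone, 80% of windows again passed.
Lead form in L1, shifted by 1 base: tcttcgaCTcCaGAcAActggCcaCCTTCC
Degenerate site outside repeats: nnnnnnTCTnCnGAnAAnnnnCnnCCTTCC
The repeats meant are the sequence families of the peak list, since no repeat annotation was used. Capitals mark the bases found in at least 50% of the sites of the matrix, and n stands for any base. There were 15 such positions, and at 14 of them the preferred base was that of the L1 form. The fit was started from the L1 form, which favours its bases, so this count is a description. The 15 positions lay in a left block around GA and AA and a right block with ccttcc. At position 7 the L1 form has A, which the matrix gave in 12.2% of sites, beside 59.4% for T and 7.09% for G. This is position 8 of the unshifted form, where A8G was bound at 4.55% of copies. At position 19, where T20C falls, T had 32.1% and C 34.9%.

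**Figure D4:**
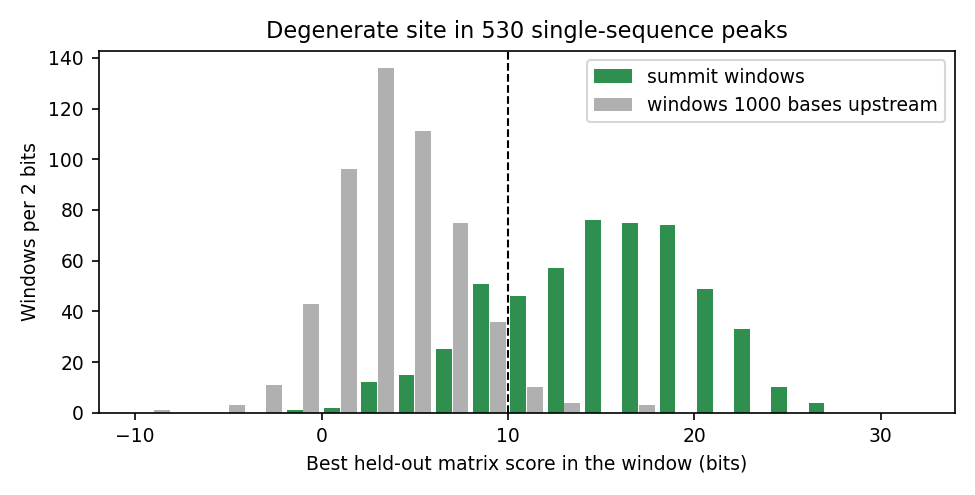
Best held-out score of the degenerate site (bits) in 530 single-sequence summit windows and in windows 1000 bases upstream of them, as windows per 2 bits, with the threshold of 10 bits as a dashed line. The summit windows pass it in 80% of cases and the upstream windows in 3.21%.

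Fold enrichment of single-sequence peaks was higher with a higher score, with much overlap. The median was 13.4 in the 106 peaks under 10 bits, 16 in the 151 peaks of 14 to 18 bits and 20.1 in the 47 peaks of at least 22 bits. A fold enrichment of at least 30 was reached by 8.49%, 9.93% and 29.8% of these peaks. Spearman's rho over the 530 peaks was 0.21, a description over sites of 1 library. In the genome, 355 matches of 22 to 24 bits lay away from the L1 stretches, and 33 of them (9.30%, 6.49 to 12.8%) had a summit within 100 bases. Of 39 such matches of 24 to 26 bits, 10 had one (25.6%, 13 to 42.1%), against 80 of 6857 matches of 18 to 20 bits (1.17%).

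The L1 copy itself held several matches of the degenerate site. The lead form scored 20.9 bits. A match of 15.6 bits lay 95 bases further 3′, at bases 604 to 633 of the copy.
Site at bases 604 to 633: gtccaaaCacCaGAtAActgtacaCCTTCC
Of the 526 peaks on the element, 271 (51.5%) had the middle of their aligned window within 30 bases of the lead form, with a median fold enrichment of 22.1. Another 76 (14.4%) lay within 30 bases of the 3′ site, with a median of 12.7, and 32 (6.08%) lay within 30 bases of a match of 13.5 bits at bases 317 to 346. The match with the next highest score after the lead form, 17.6 bits at bases 112 to 141, had 3 peaks within 30 bases (0.570%), so the number of peaks did not follow the score among the matches. In genomic stretches the 3′ site was taken as its closest match in the stretch or within 300 bases on either side. Stretches with 1 substitution from the lead form had a peak in 56 of 113 cases where the 3′ site was unchanged (49.6%, 40 to 59.1%). Where it had 1 to 3 substitutions, 13 of 100 had a peak (13%, 7.11 to 21.2%). With 2 substitutions the shares were 33.3% of 63 and 5.39% of 519 stretches. With the lead form they were 79.6% of 445 and 61.1% of 36 stretches, and these intervals overlap. Copies alike at 1 site are more alike elsewhere, so these bases and the rest of the copy cannot be told apart here.

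The second family held a match of the degenerate site. In 152 of its 157 windows (96.8%, 92.7 to 99.0%) a match of at least 10 bits was found with the held-out matrices, against 12 windows upstream (7.64%). It lay at a median of 11 bases from the summit. These windows are copies of 1 repeated sequence, so a match in 1 copy recurs in others, and the share does not count independent sites. The commonest match was the best one in 48 windows.
Second family: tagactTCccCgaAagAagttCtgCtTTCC
It scored 12.9 bits, and capitals mark the bases of the degenerate site. The copy at the family centre, with its summit at base 8018749 of chromosome 1, lay between direct repeats of 324 bp with 97.2% identity, 5858 bases before and 1277 bases after the summit. Its longest open frame had 777 codons. This element was not named, since no repeat annotation was used. The small families, also groups of copies, had a match in 41 of 55 windows (74.5%, 61.0 to 85.3%).

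The strongest sites were single-sequence peaks in or near genes. The peak with the highest fold enrichment, 124.6, lay 648 bases from a transcript start of the long non-coding RNA gene Gm67801 on chromosome 10. The next, at 120.9, lay in an intron of Odf2, which encodes a protein of sperm tail fibres and centrioles. A peak of 115.6 lay 61 bases from a transcript start of Tenm4, a teneurin transmembrane protein. Further peaks among the 10 strongest outside the L1 element lay in introns of Fgf14, an intracellular regulator of sodium channels (99.4), of Sdcbp, the adaptor syntenin (94.8), and of Itga8, an integrin subunit (74.3). Others lay in introns of the non-coding genes Gm11715 (98.3) and Gm57011 (96.2) and at the start of Gm19552 (77.0). None of the peaks named here was common with another list. The matches below were found in the peaks of Odf2, Sdcbp and Gm19552.
chr2:29798832-29798861, minus strand, Odf2 intron: ctgatgTCctCtGAtgActttCtgCtTcCC
chr4:6370796-6370825, minus strand, Sdcbp intron: tttccaaCctCtGAtAAcactgctCCTTCC
chr1:82329927-82329956, plus strand, Gm19552 start: ataaccTCccCaGAtAAtacaCcaCCTTCC
Capitals mark the bases that are those of the degenerate site, in the GRCm39 assembly. These sequences scored 20.9, 21.2 and 24.6 bits with the matrix of all single-sequence windows. The peak in Fgf14 had no match, with a held-out score of 2.62 bits despite its fold enrichment of 99.4.

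The 10 strongest L1 peaks had fold enrichments of 49.9 to 56.5. Introns of genes held 5 of them, in AW209491 (56.5), in Grid1, a delta glutamate receptor (54.7), in Auts2 (53.1), in Dlg2, a postsynaptic scaffold protein (52.6), and in the non-coding gene 9530036O11Rik (50.5). One lay 230 bases from the start of the pseudogene Gm17132 (53.8). The other peaks lay between genes, and 3 of them (52.0, 51.6 and 50.7) had no gene within 10 kb.

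L1 peaks and single-sequence peaks were spread differently over the chromosomes. Chromosome X held 54 of 508 L1 peaks (10.6%, 8.09 to 13.6%) and 9 of 530 single-sequence peaks (1.70%, 0.779 to 3.20%), beside 6.20% of the assembled bases. Chromosome Y held 25 L1 peaks (4.92%, 3.21 to 7.18%) and 1 single-sequence peak (0.189%), beside 3.34% of the bases. On chromosome 11 the order was the other way, with 9 L1 peaks and 46 single-sequence peaks. The lead form was itself denser on X, with 0.311 stretches per Mb, and on Y, with 0.429, against 0.164 on the autosomes. The share of these stretches with a peak had overlapping intervals, at 41 of 51 stretches on X (80.4%, 66.9 to 90.2%), 24 of 38 on Y (63.2%, 46.0 to 78.2%) and 312 of 394 on the autosomes (79.2%, 74.8 to 83.1%). Over all peaks, the share on X was 6.00%, against 4.73 ± 2.81% in the other lists (SD, n = 41 lists).

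**Figure D5:**
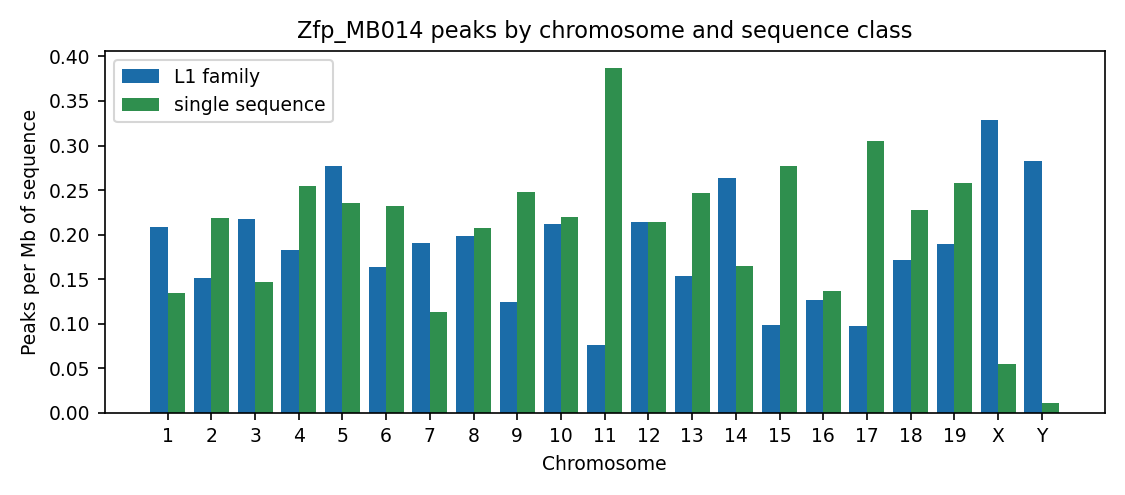
Zfp_MB014 peaks per Mb of assembled sequence on each chromosome, for the L1 family and the single-sequence peaks. L1 peaks are densest on X, at 0.329 per Mb, where single-sequence peaks stand at 0.0548 per Mb.

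Gene context also differed between the classes. Promoters, taken as 1000 bp on either side of any annotated transcript start, held 119 of 530 single-sequence summits (22.5%, 19 to 26.2%) and 6 of 508 L1 summits (1.18%, 0.435 to 2.55%), beside 8.38% of the assembled bases. Without the L1 and second families the promoter share of Zfp_MB014 was 21.4%, against 21.9 ± 18.7% in the other lists (SD, n = 41 lists). The other lists kept all their peaks, repeated sequences included, so these shares are not of like sets. Exons outside promoters held 40 single-sequence summits (7.55%) and 3 L1 summits (0.591%), beside 4.41% of the bases. Introns held 241 single-sequence summits (45.5%) and 199 L1 summits (39.2%), beside 45.5% of the bases. Intergenic sequence held 300 L1 summits (59.1%, 54.6 to 63.4%) and 130 single-sequence summits (24.5%, 20.9 to 28.4%). The second family was most like the L1 family, with 101 of 157 summits between genes (64.3%).

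At promoters the strongest peaks after Gm67801, Tenm4 and Gm19552 lay at Gm32960 (63.7), at the pseudogene Gm17132 named above and at Xylt2, a xylosyltransferase that starts proteoglycan chains (50.9). They were followed by Gm60484 (48.1), which lay in the second family, and by Syngr2, a synaptogyrin (45.4), Arhgef2, an exchange factor for RhoA (45.2), and Osbpl7, an oxysterol-binding protein (43.8). In exons outside promoters strong peaks lay in the non-coding gene 2310040G24Rik (68.4), in Prmt5, an arginine methyltransferase (57.7), and in Dgkb, a diacylglycerol kinase (55.4). The exon peaks that followed, with fold enrichments of 27.9 to 40.8, lay in Gm69785, Socs6, AI839979, Mad1l1, Gm34388 and Pdlim2. The peaks at 2310040G24Rik, Dgkb and Mad1l1 lay in overlapping genes, so the exon may be of another gene than the one named. Prmt5 and Dgkb had held-out scores of 23.8 and 26.7 bits, and the promoter peak at Gm32960 had 5.30 bits.

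Over all peaks, no measure of gene context passed the test against the other lists. Its promoter share was 11%, against 21.9 ± 18.7% in the other lists, its exon share 4.08%, against 4.12 ± 2.69%, its intron share 40.2%, against 32.5 ± 11.2%, and its intergenic share 44.6%, against 41.5 ± 17.7% (SD, n = 41 lists each). The mean GC content of its summit windows was 52.0%, against 49.7 ± 6.56%. Exact two-sided permutation tests over the 42 lists gave p between 0.500 and 0.976 for these shares, GC content and the share on X, with Benjamini-Hochberg adjusted p between 0.967 and 0.976 over 7 measures. The smallest p that these tests can give is 0.0238, which cannot pass the adjustment alone. The direction of the exon, intergenic, X and GC differences turned round when the L1 and second families were left out of Zfp_MB014. The other lists were then kept whole.

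L1 sequences in introns ran against the gene more often than with it. Of 184 L1 peaks in introns of genes on 1 strand, 68 (37.0%, 30.0 to 44.4%) had the L1 sequence in the sense of the gene. The share was 34.4% (30.6 to 38.5%) in 578 intronic stretches without a peak, so the intervals of both overlap. Introns held 205 of 523 stretches with a peak (39.2%, 35 to 43.5%), against 625 of 2301 without (27.2%, 25.4 to 29%). Among stretches with the lead form the shares were 41.6% of 377 with a peak and 33.0% of 106 without, and these intervals overlap.

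Few Zfp_MB014 sites were common with other KZFPs. A peak of another list overlapped 89 of 1250 Zfp_MB014 peaks (7.12%, 5.76 to 8.69%), against 26.0% of the 23725 peaks of the other 41 lists pooled and 60.1 ± 30.3% as the mean of those lists. This was the lowest share of the 42 lists, at the smallest p of the exact permutation test, 0.0238, and an adjusted p of 0.167 over 7 measures. The next lowest were Zfp_MB026 (9.26%), Zfp_MB020 (10.2%), Zfp_MB028 (11.3%), Zfp_MB023 (12.3%) and Zfp982 (13.2%), beside a median of 63.3% in the other lists. Zfp_MB014 had rank 5 by list size. Zfp_MB026, Zfp_MB028 and Zfp982 were also long, at 4105, 1423 and 4745 peaks, and Zfp_MB020 and Zfp_MB023 had 410 and 300. The long lists Zfp_MB016 (6170 peaks) and Zfp_MB001 (1152 peaks) stood at 18.2% and 19.3%. Against other lists of at least 100 peaks the difference was -47.9 percentage points, with an exact permutation p of 0.115. The part of list size was not tested beyond this. With summits within 100 bp the share of Zfp_MB014 was 2.24%, and the permutation p was 0.167. The 42 lists come from 32 different finger arrays. With the shares averaged within each array, the difference was -45.7 percentage points, against -53.0 with all lists. The exact permutation p was 0.0938, and overlap between lists of the same array still counted in these shares.

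The classes differed in which list they were common with. Of 508 L1 peaks 15 were common with another list (2.95%), of 157 in the second family 18 (11.5%) and of 530 single-sequence peaks 46 (8.68%). Zfp982 had 23 peaks in common, 1.84% of the Zfp_MB014 list and 0.485% of its own, of which 17 were single-sequence peaks and 1 had its summit within 100 bp. Zfp_MB035 had 13 in common, 1.04% and 2.85% of the lists. Of these, 12 lay in the second family, and all 13 had summits within 100 bp. Zfp_MB026 had 15, with 9 in the second family and 1 with summits within 100 bp. Zfp981 and Zfp_MB011 had 7 and 6 L1 peaks in common. The peak common with most lists, 11 of them, lay in the non-coding gene Gm57952 on chromosome Y, with a fold enrichment of 11 and a held-out score of 6.12 bits.
Of the 12 peaks common with at least 2 lists, 9 others are named here, each common with 2. They lay at the L1 sequences of Gm54200, Pate2, Gm71673 and AW554918, at the second family in Gm15802 and near Mmp10 and Speer6-ps1, and in the single-sequence peaks of Adgrg6 and Bcl11b. The second family peaks among them were common with Zfp_MB026 and Zfp_MB035, and those at Gm54200, Pate2 and Gm71673 with Zfp981 and Zfp_MB011.

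Genes of the lists followed here were seldom near a site. A summit lay in or within 10 kb of 1531 of 78252 annotated genes (1.96%) and of 690 of 21757 protein-coding genes (3.17%). Of 454 zinc finger genes, 16 (3.52%, 2.03 to 5.66%) were so placed, near the share of all protein-coding genes. The strongest of these peaks were the L1 peaks in introns of Zfpm2 (41.6), a cofactor of GATA factors, and Zfp277 (40.1), and the peak at the promoter of Zfp740 (33.0). Of 19 annotated pluripotency genes, 2 had a summit within 10 kb, 1924 bases from Esrrb and 4310 bases from Prdm14, both regulators of naive pluripotency, with fold enrichments of 11.5 and 11.3. Of 26 genes of L1 and repeat silencing, 1 had one, 3838 bases from Mov10, an RNA helicase that restricts retrotransposons (12.5). No summit lay near any of 29 annotated imprinted genes (upper limit 11.9%) or 59 protocadherin genes (upper limit 6.06%).

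No Zfp_MB014 peak lay in the assembled part of the chromosome 4 KZFP gene cluster that encodes it, between Tnfrsf8 and Miip (chr4:144993707-147953273, 2.96 Mb with 20 annotated zinc finger genes). Of the 23725 peaks of the other 41 lists, 51 lay there. This part held 3 L1 stretches with a copy of the 30-base site, and none had a peak. Over the genome 18.5% of 2824 such stretches had one. At these low shares, counts this small cannot tell an absence of peaks from the general rate. Per the study, GRCm39 has gaps in this cluster and lacks a large part of its sequence, so the missing sequence was not searched.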

How the data were processed

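Per the study's methods, the authors sequenced 100 bp paired-end reads of each library, aligned them to GRCm39 with BWA, kept 1 of equally good alignments at random and removed duplicates with SAMtools (version 1.19). Peaks were called per library with MACS2 (version 2.2.7.1) against the mixed input of the batch. Peaks that touched a peak of an empty vector control were removed, so sites there are not seen. The deposited values are the fold enrichment at the summit, a ratio to input of at least 10 (5 in lists with under 20 peaks), the −log10 p and q by the authors' peak caller, and a display score by the authors made from q. Fold enrichment was used, with the summit positions. The lists hold no read totals, and the read numbers per library that the study gives were not used here.

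Windows were aligned with blastn 2.17.0, gene context was taken from GENCODE M39 on the same build, and sites were scanned on both strands with numpy 2.4.6 and numba 0.67.0. Shares have exact Clopper-Pearson 95% intervals from scipy 1.17.1. Families, site scan, matrix fit and permutation test were checked on simulated data. Lists were compared by exact two-sided permutation tests over the 42 lists with an adjusted p threshold of 0.05. Named genes were those of the 10 strongest L1 peaks, of the 10 outside the element, at promoters and in exons, of the 10 peaks common with most lists, and of 5 gene lists. Members and lists were chosen with earlier results of these data known, and the matrix, the 3′ site and the counts that follow from them after the peaks had been seen. Sequences are from the assembly or the study's motif table. Whether a promoter peak belongs to the gene named is not known where several starts lie within 1000 bp. One peak that falls under the rule for named genes is not reported here.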

Additional observations from a re-analysis of the deposited data

How the results depend on the processing

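The L1 family held 39 to 42.2% of peaks with other windows and identities, 46.1% of peaks with a fold enrichment of at least 15 and 52.1% at 20, and the whole element 46.9% and 52.3%. The 15-base motif was in 31.6% of windows with no mismatch, 42.2% with 2, 31.4% of 100 bp windows, and 45.2% and 52.5% of peaks at fold enrichments of 15 and 20. The bound share of 30-base copies was 26.8% with at most 3 mismatches, 18.2% with 8, 17.6% and 12.7% at fold enrichments of 15 and 20, 12.3% with the site within 100 bp of the summit and 12.4% of copies whose 100 bases occur once. The sense share stayed between 36.7% and 41.1%.

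The exon difference, −0.0358 percentage points, was 0.459 with 2000 bp promoters and 0.306 among batch 3 lists. An alternative chosen after seeing the data left out the L1 and second families of Zfp_MB014 and kept the other lists whole. The exon difference was 3.41, the intergenic difference −14.7, the X difference −2.85 and the GC difference −0.341. The promoter difference was then −0.517, against −10.8 with all peaks. No test over lists passed an adjusted 0.05 under any alternative, but the design left little room for a pass. Among batch 3 lists the smallest p that the permutation test can give is 0.0769. In the other settings it was 0.0238 or more, which cannot pass the adjustment alone. These failures therefore do not show that the lists are alike. For the common share, the permutation p was between 0.0238 and 0.167. The degenerate site, with alternatives chosen after seeing the data, was in 89.6% of windows at 8 bits and 71.3% at 12 bits.

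No paired analysis was possible because each KZFP has 1 library and the labels give no shared replicate numbers. With peak lists alone, sites under the cutoff of 10 cannot be told from unbound ones, and random placement of reads can lend a peak to an identical unbound copy: with the lead form, 36 of 68 stretches whose 100 bases occur once had a peak (52.9%), against 341 of 415 others (82.2%).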
